A study of Saccharomyces cerevisiae with 24 samples.

Results

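The subject was the change in the transcriptome of snf1∆ yeast between log phase and 24 hr of culture, that is, the part of the post-log response that took place without the Snf1 kinase. The 6 libraries concerned, of the 24 in the series, were chosen by their labels alone: 3 of strain JS1394 (snf1 null) at 24 hr and 3 of the same strain at log phase, which the labels give as 5 hr and the study's methods as 6 hr. They were set beside the 6 libraries of the WT strain JS1256 at the same times. Both strains were MATa haploids of the BY4741 background, which needs added histidine, leucine, methionine and uracil, derived by tetrad dissection, with SNF1 replaced by a drug resistance cassette in JS1394 and no treatment in any culture. The medium held 2% glucose, named YPD in the labels and synthetic complete (SC) medium in the methods. Each strain is a single isolate grown in triplicate cultures, so the p-values measure the spread between cultures of that isolate. The other 12 libraries were of the same strains at 48 hr and of a snf1 suppressor strain.

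Snf1 is the yeast AMP-activated protein kinase. When glucose runs out, budding yeast passes through the diauxic shift, in which cells stop fermenting, slow growth and begin to respire the ethanol they have made, and then enter stationary phase. Snf1 releases repression by Mig1 and turns on activators such as Cat8 and Adr1, so that genes for other carbon sources, gluconeogenesis and respiration are expressed. Other signals act on the same transition, among them lowered protein kinase A and TORC1 activity, which silence ribosome production and let the stress factors Msn2 and Msn4 act.

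SNF1 itself received 11, 6 and 7 reads in snf1∆ at 24 hr and 5, 7 and 2 reads in snf1∆ at log phase, against 68.4, 71.7 and 67.1 CPM in WT at 24 hr and 66.0, 63.2 and 69.8 CPM in WT at log phase, so the labels of the deletion held in all 12 libraries. CPM here is a count scaled to the size of its library after TMM normalisation. The MATa-specific receptor gene STE2 was at 834 CPM or more in the snf1∆ libraries, whereas MET17 and URA3, which BY4741 lacks, had too few reads to be tested. LEU2 was at 2.19 CPM or less there, and the MATalpha genes MF(ALPHA)1, MF(ALPHA)2 and STE3 at 2.31, 6.16 and 24.5 CPM or less. Other markers meant to be low were not: SAG1, also a MATalpha gene, had 40.9 to 104 CPM and HIS3 62.3 to 190 CPM in snf1∆. Both were also read in WT, at 31.4 to 77.5 and 30.6 to 50.6 CPM. Total counts were 3749146, 4820067 and 9761488 in snf1∆ at 24 hr and 9694808, 28133662 and 8804354 in snf1∆ at log phase, and log2 CPM of replicates correlated at 0.983 to 0.989 at 24 hr and 0.992 to 0.995 at log phase. Some snf1∆ and suppressor libraries at 48 hr matched the other strain more closely than their own replicates. These entered the fit through the filter, the scaling and the shared estimate of the spread, and counts of list members that rose or fell in snf1∆ are given both ways where leaving out the 48 hr libraries moved them by over 1.5 times and by at least 2 genes.

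A large response remained in the absence of SNF1. Of 6616 genes tested with edgeR's quasi-likelihood test at a Benjamini-Hochberg adjusted p of 0.05, 2412 (36.5%) were called higher and 2021 (30.5%) lower in snf1∆ at 24 hr than in snf1∆ at log phase, and without the 48 hr libraries these counts were 2573 and 2575. In WT the same comparison called 2725 genes higher (41.2%) and 2550 lower (38.5%), or 2898 and 2783 without the 48 hr libraries. Large changes were fewer in snf1∆: 158 genes were called higher and 54 lower with a log2 fold change past 3, whereas 562 and 568 were in WT. The median over all tested genes was 0.09 in snf1∆ and 0.10 in WT, so that fold changes are relative to a pool whose middle gene barely moved. With library size as the only scaling these medians were -0.07 and -0.41, and 2011 genes were called higher and 2236 lower in snf1∆, and 1971 higher and 3154 lower in WT.

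Most genes that changed in snf1∆ also changed in WT and in the same direction. Of the 2412 genes that rose in snf1∆, 1915 were also called higher in WT, 113 were called lower and 384 were not called; of the 2021 that fell, 1727 were also called lower in WT, 105 were called higher and 189 were not called. The size of the change differed more than its sign. Among the 1915 genes that rose in both strains the median log2 fold change was 1.23 in snf1∆ and 1.87 in WT, and among the 1727 that fell in both it was -1.27 in snf1∆ and -2.30 in WT.

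To separate genes by how the responses compared, the difference of the 2 responses was tested directly in the same model (the change in snf1∆ minus the change in WT). It was called higher for 1937 genes (29.3%) and lower for 1695 (25.6%), for 2275 and 2232 without the 48 hr libraries, and for 2532 and 1129 with library size as the only scaling. A gene called in snf1∆ was then placed in 1 of 5 classes. It was similar where no difference was called and the 95% interval of the difference lay within 1 log2 unit of zero, smaller or larger where a difference was called, larger with a WT value of opposite sign, or undecided. Of the genes that rose in snf1∆, 568 were similar, 907 smaller, 138 larger, 237 larger with the opposite sign in WT and 562 undecided. Of those that fell, 371 were similar, 1044 smaller, 90 larger, 167 larger with the opposite sign in WT and 349 undecided. The undecided genes decreased to 152 and 133 without the 48 hr libraries, and the similar ones numbered 675 and 550. A further 516 genes were called higher in WT and not in snf1∆ with a called difference, and 501 were called lower in this way.

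**Figure D1:**
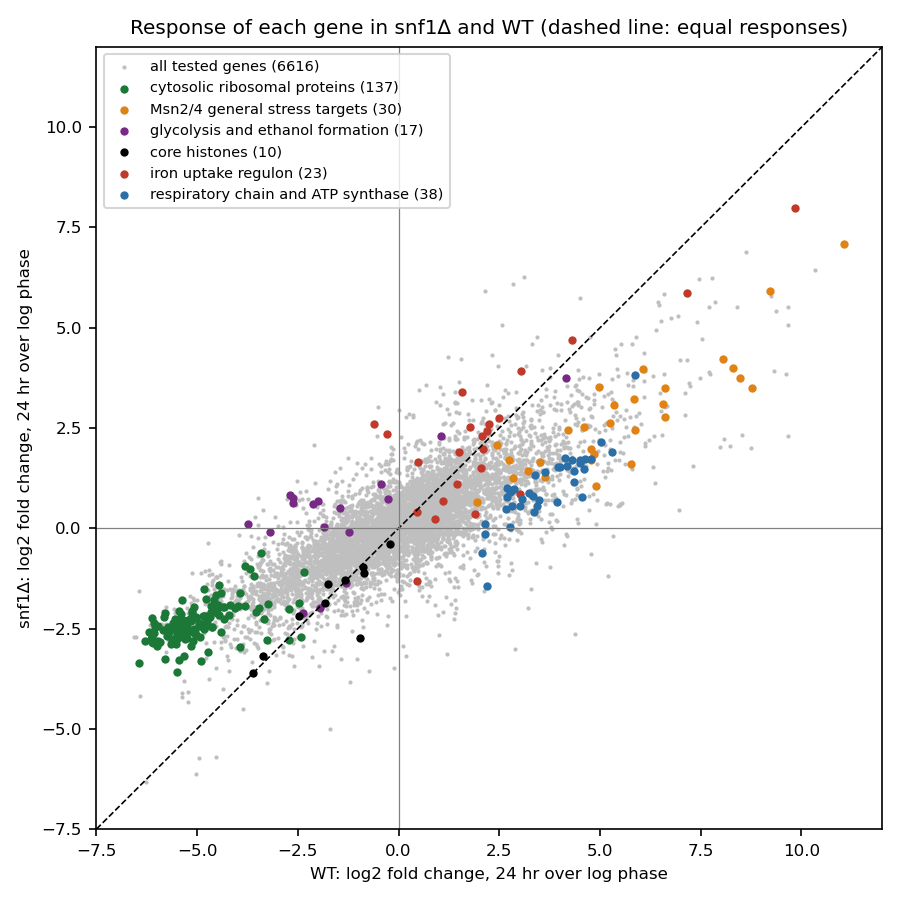
Each point is a gene; the vertical axis is its log2 fold change at 24 hr over log phase in snf1∆ and the horizontal axis the same in WT, with 6 gene lists in colour and a dashed line where both responses are equal. Of the ribosomal protein genes 133 of 137, and of the Msn2/4 targets 29 of 30, have a called difference that places them nearer to zero in snf1∆ than in WT, 6 of 10 histone genes are of the similar class, and 13 of 17 glycolytic genes lie above the line with a called difference.

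Genes for the ribosome fell in snf1∆ almost without exception. Of 137 cytosolic ribosomal protein genes, which together build the 2 subunits of the ribosome, 136 fell and none rose in snf1∆, with a median log2 fold change of -2.42 (range -3.58 to -0.61). The fall was smaller than in WT, where all 137 fell with a median of -5.15, and the difference of responses was called higher for 133 of them. Near-identical gene copies share over 10% of their 75-base stretches in 23 members, so reads could be split between these. RPL24A, for a large-subunit protein, had 70.0, 104 and 138 CPM in snf1∆ at 24 hr, against 916, 1152 and 1133 in log-phase snf1∆, a log2 fold change of -3.35 ± 0.28 (SE, adjusted p = 2.70e-09). The 3 libraries at 24 hr lay well below the 3 at log phase, yet above the WT values at 24 hr, which were 20.5, 13.5 and 15.5 CPM against 1189, 1615 and 1476 CPM in WT at log phase. RPS7B, for a small-subunit protein, had 38.2, 49.9 and 52.4 CPM in snf1∆ at 24 hr, against 472, 399 and 525 in log-phase snf1∆, a log2 fold change of -3.31, with -4.90 in WT. RPL41A, which encodes a very short ribosomal protein, was the exception with a similar fall in both strains. It had 50.3, 62.6 and 59.1 CPM in snf1∆ at 24 hr, against 524, 267 and 406 in log-phase snf1∆, and the difference of responses was -0.09 with an interval of -0.92 to 0.74. As a group these genes held 2.30%, 2.74% and 3.15% of all counts in snf1∆ at 24 hr, against 13.5%, 14.6% and 14.2% in snf1∆ at log phase, without overlap (exact two-sided permutation test p = 0.1, the smallest that 3 against 3 libraries can give). Most of the gene lists were separated in this way.

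Genes for ribosome assembly followed the same course. Of 131 ribosome biogenesis factors tested, 119 fell and none rose in snf1∆ (median -1.48), whereas 128 fell in WT (median -3.26). The difference was called higher for 111 members. Their promoters are known for 2 short elements, PAC (GATGAG) and RRPE (AAAATTTT). In the window from 250 bases before to 50 bases after the annotated gene start, PAC was found on either strand in 92.4% and RRPE in 77.9% of the 131 promoters, against 20.3% and 9.04% of all 5950 promoters. The upstream part of this window, bases 250 to 101 before the start, is shown from the RefSeq R64 genome (the sequence of sacCer3) for the 3 members with the largest fall in snf1∆ among those with both elements in this part, 5′ to 3′ on the gene's strand with PAC and RRPE matches in capitals.
SNU13 (chrV:101693-101842, plus strand): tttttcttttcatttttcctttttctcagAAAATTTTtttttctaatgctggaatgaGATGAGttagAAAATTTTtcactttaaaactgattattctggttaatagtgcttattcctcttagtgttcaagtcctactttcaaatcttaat
ALB1 (chrX:189466-189615, plus strand): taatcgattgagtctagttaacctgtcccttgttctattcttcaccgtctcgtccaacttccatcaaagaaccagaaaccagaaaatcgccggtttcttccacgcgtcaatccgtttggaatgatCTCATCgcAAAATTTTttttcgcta
NOP56 (chrXII:545847-545996, plus strand): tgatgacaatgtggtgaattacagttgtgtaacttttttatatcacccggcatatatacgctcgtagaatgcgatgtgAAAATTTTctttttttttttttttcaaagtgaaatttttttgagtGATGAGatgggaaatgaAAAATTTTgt
In SNU13 PAC began 193 bases before the start codon with RRPE 183 and 221 bases before it, in ALB1 PAC began 125 and RRPE 117 bases before it, and in NOP56 PAC began 127 with RRPE 110 and 172 bases before it. The same elements preceded genes whose falls differed from WT to different degrees. NOP56, a core box C/D snoRNP protein, had 81.3, 87.0 and 102 CPM in snf1∆ at 24 hr, against 559, 629 and 584 in log-phase snf1∆, while it was at 7.89, 7.86 and 7.99 CPM in WT at 24 hr, against 715, 716 and 752 CPM in WT at log phase. Its log2 fold change was -2.71 ± 0.16 (SE, adjusted p = 2.21e-11) in snf1∆ and -6.52 in WT. ALB1, a factor of large-subunit export, had 7.94, 6.74 and 6.50 CPM in snf1∆ at 24 hr, against 51.3, 56.3 and 56.1 in log-phase snf1∆, with log2 fold changes of -2.97 in snf1∆ and -4.17 in WT. SNU13, a protein of the U3 snoRNP and of the spliceosome, had 30.5, 35.8 and 30.6 CPM in snf1∆ at 24 hr, against 306, 256 and 254 in log-phase snf1∆, a fall similar to that in WT (difference -0.19, interval -0.73 to 0.35).

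The machinery that makes rRNA and the factors of translation fell as well. Of 15 RNA polymerase I subunits and associated factors, 10 fell and 2 rose in snf1∆. RPA12, a polymerase I subunit, had 11.1, 8.09 and 12.3 CPM in snf1∆ at 24 hr, against 61.1, 52.2 and 55.9 in log-phase snf1∆ (log2 fold change -2.41, with -5.26 in WT). Of 35 translation initiation and elongation factors, 31 fell in snf1∆ (median -1.36, with -2.62 in WT). TEF4, a subunit of elongation factor eEF1B, had 199, 234 and 187 CPM in snf1∆ at 24 hr, against 1521, 1215 and 1510.4 in log-phase snf1∆. CAM1, the other gene for that subunit, was the only member of the list that rose, with 800.1, 798 and 667 CPM in snf1∆ at 24 hr, against 326, 288 and 317 in log-phase snf1∆, and it did so similarly in WT (log2 fold changes 1.28 and 1.56).

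Genes of the cell cycle fell in snf1∆, several of them as far as in WT. Of 10 core histone and linker histone genes, 9 fell (median -1.62 in snf1∆ and -1.54 in WT), and 6 were in the similar class. HTA2, a histone H2A gene, had 19.2, 25.2 and 29.1 CPM in snf1∆ at 24 hr, against 271, 327 and 309 in log-phase snf1∆, and 47.9, 42.7 and 28.8 CPM in WT at 24 hr, against 444, 479.5 and 522 in log-phase WT. The fall was -3.61 in snf1∆ and -3.60 in WT, with an interval of the difference from -0.96 to 0.94. The linker histone gene HHO1 fell further in snf1∆, with 8.90, 8.28 and 11.0 CPM in snf1∆ at 24 hr, against 68.7, 56.2 and 67.2 in log-phase snf1∆ (log2 fold change -2.74, with -0.96 in WT). Of 12 cyclin genes 9 fell in snf1∆ and 2 rose. CLB2, the main mitotic cyclin, had 2.65, 3.08 and 5.30 CPM in snf1∆ at 24 hr, against 53.1, 60.3 and 54.8 in log-phase snf1∆, and PCL2, a cyclin of the Pho85 kinase, rose with 48.6, 45.1 and 43.0 CPM in snf1∆ at 24 hr, against 11.9, 12.2 and 13.9 in log-phase snf1∆ although WT showed a log2 fold change of -0.19.

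The 10 genes with the largest falls in snf1∆ had varied functions. UTR2, a cell wall chitin transglycosylase (chrV:78053-79456 in sacCer3, plus strand), had 9.14, 13.3 and 11.1 CPM in snf1∆ at 24 hr, against 1041, 697 and 965 in log-phase snf1∆, and 16.7, 16.4 and 12.3 CPM in WT at 24 hr, against 1346, 893 and 1222 in log-phase WT. These log2 fold changes, -6.33 ± 0.33 (SE, adjusted p = 7.73e-12) in snf1∆ and -6.26 in WT, were similar. RNR1, the large subunit of ribonucleotide reductase, had 16.6, 16.6 and 22.1 CPM in snf1∆ at 24 hr, against 355, 382 and 385 in log-phase snf1∆. POL30, the replication clamp PCNA, had 5.05, 4.24 and 6.32 CPM in snf1∆ at 24 hr, against 103, 78.4 and 95.9 in log-phase snf1∆. In both, all snf1∆ libraries at 24 hr lay below every log-phase library. Such separation of the times, in either direction, held for 77.6% of all tested genes. The fall was smaller than in WT by 0.89 for RNR1 and 1.26 for POL30 on the log2 scale. CHO2, the first methyltransferase of phosphatidylcholine synthesis, showed the opposite relation. It had 28.1, 27.9 and 25.2 CPM in snf1∆ at 24 hr, against 399, 378 and 380.2 in log-phase snf1∆. In WT it had 159.9, 183 and 224 CPM at 24 hr, and the fall was larger in snf1∆ (difference -2.62 ± 0.30 (SE, adjusted p = 5.35e-07)). The other members of the 10 were IMD2 (IMP dehydrogenase, with 19.7% of its stretches shared with copies), HRP1, SFG1, TOS4, SAM2 and CLB2, with log2 fold changes of -6.12, -4.50, -4.18, -4.07, -3.86 and -3.82 in snf1∆. HSL1, a kinase of the G2/M transition, and CDS1, which makes CDP-diacylglycerol, were among the similar genes with the largest falls, at -3.17 and -2.97 in snf1∆ and -2.72 and -2.88 in WT.

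**Figure D2:**
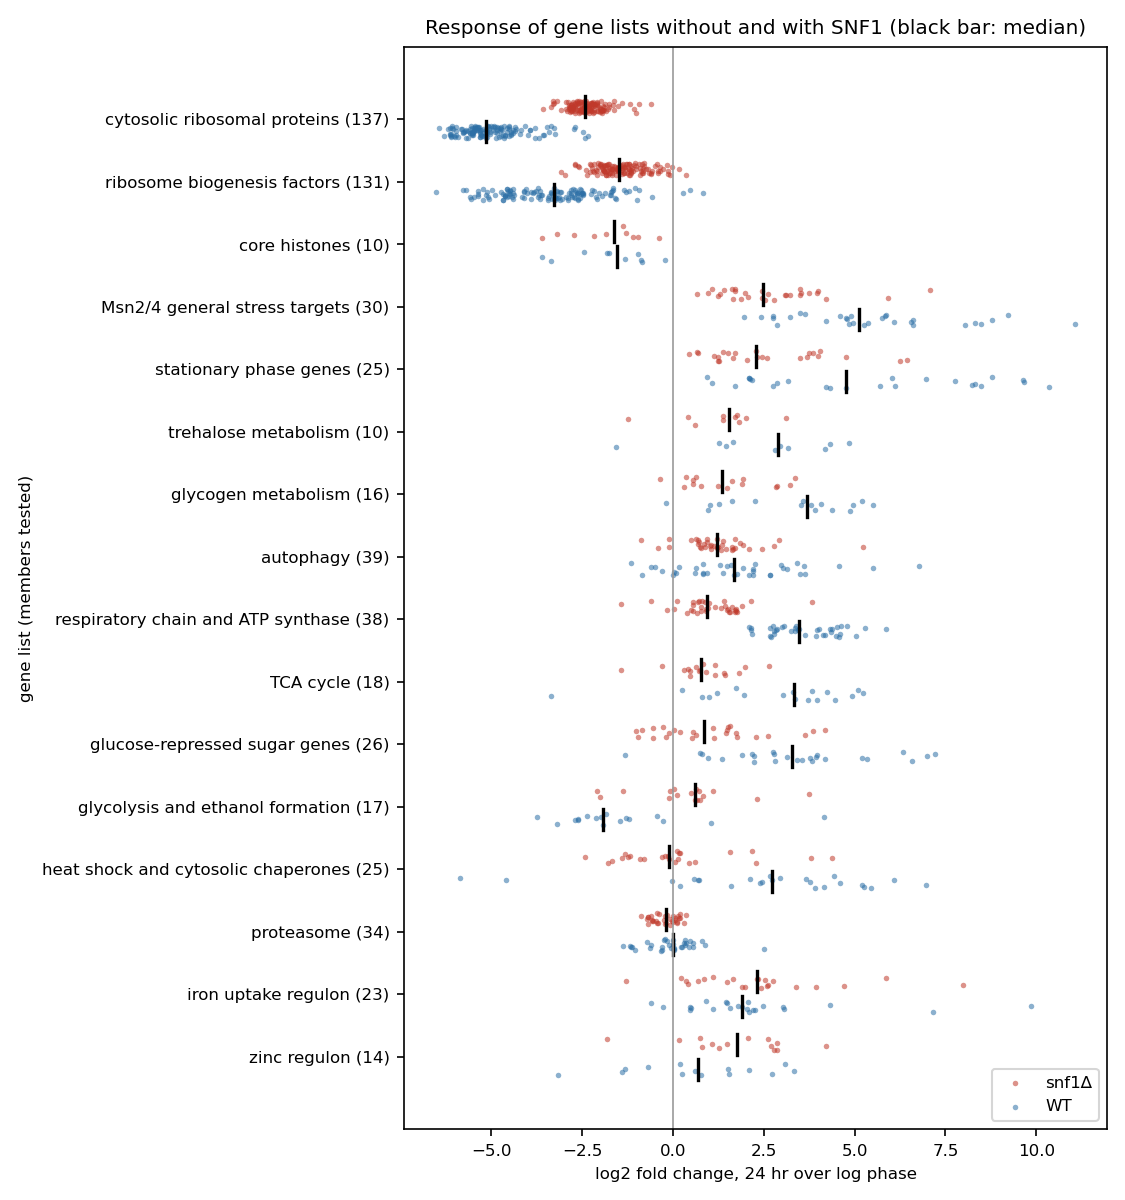
Log2 fold change at 24 hr over log phase (horizontal axis) of every tested member of 16 gene lists (rows, number of members in brackets), with snf1∆ in red above WT in blue and a black bar at the median. The snf1∆ medians of the ribosomal protein and Msn2/4 lists lie at -2.42 and 2.49 and those of WT at -5.15 and 5.11, whereas the medians of the histone list are -1.62 in snf1∆ and -1.54 in WT and those of the iron list 2.30 and 1.89.

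General stress genes rose without SNF1. Msn2 and Msn4 are zinc finger activators that bind the stress response element STRE (AGGGG) when protein kinase A and TORC1 activity drops. All 30 tested members of a list taken as their targets rose in snf1∆ (median 2.49, range 0.66 to 7.08) and in WT (median 5.11), and the difference was called lower for 29 of them. The list came from general knowledge. Whether each member, HSP30 included, depended on Msn2 or Msn4 was not tested. HSP26, a small heat shock protein that binds unfolded proteins (chrII:382030-382674, plus strand), had 3293, 3188 and 3218 CPM in snf1∆ at 24 hr, against 23.0, 26.8 and 21.5 in log-phase snf1∆, a log2 fold change of 7.08 ± 0.27 (SE, adjusted p = 1.16e-13). This was among the largest rises in snf1∆ and still -3.98 ± 0.31 (SE, adjusted p = 5.52e-09) short of that in WT, where HSP26 had 25675, 25351 and 22092 CPM at 24 hr, against 8.36, 14.6 and 10.9 in log-phase WT. DDR2, a stress gene induced by DNA damage and many other stresses, had 584, 524 and 405 CPM in snf1∆ at 24 hr, against 9.72, 6.27 and 9.10 in log-phase snf1∆, and 3178, 2882 and 3289 CPM in WT at 24 hr, against 4.13, 5.34 and 6.04 in log-phase WT. HSP30, a plasma membrane protein that lowers the activity of the proton pump under stress, had 7619.5, 7731 and 5899.8 CPM in snf1∆ at 24 hr, against 525, 304 and 319.6 in log-phase snf1∆ (log2 fold change 4.21, with 8.04 in WT). Together the 30 genes took 2.99%, 2.79% and 2.62% of counts in snf1∆ at 24 hr and 0.536%, 0.445% and 0.471% in snf1∆ at log phase, while in WT they took 12.7%, 12.4% and 12.8% at 24 hr and 0.271%, 0.288% and 0.355% at log phase.

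STRE was found on either strand in the window of 73.3% of these 30 promoters, against 21.7% of all 5950. Bases 250 to 101 before the start are shown in the same way for the 3 members with the largest rises in snf1∆ among those with STRE in this part, with AGGGG, or its complement CCCCT, in capitals.
DDR2 (chrXV:231856-232005, minus strand): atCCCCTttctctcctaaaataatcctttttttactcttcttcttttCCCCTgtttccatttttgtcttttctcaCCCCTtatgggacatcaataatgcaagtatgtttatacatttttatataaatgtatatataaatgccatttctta
HSP12 (chrVI:107006-107155, plus strand): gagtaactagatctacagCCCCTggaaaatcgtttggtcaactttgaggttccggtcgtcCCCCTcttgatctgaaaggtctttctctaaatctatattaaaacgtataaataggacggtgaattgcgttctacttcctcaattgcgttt
CTT1 (chrVII:654384-654533, plus strand): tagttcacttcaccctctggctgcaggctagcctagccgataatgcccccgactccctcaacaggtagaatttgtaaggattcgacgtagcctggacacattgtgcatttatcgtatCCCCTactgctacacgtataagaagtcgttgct
DDR2 had 3 matches here, which began 175, 203 and 248 bases before the start codon. HSP12 had 2, at 190 and 232 bases, and CTT1 had 1, at 133 bases. HSP12, a membrane-protecting stress protein, had 479, 503 and 591 CPM in snf1∆ at 24 hr, against 33.3, 25.6 and 39.7 in log-phase snf1∆, and CTT1, the cytosolic catalase, had 433, 365 and 302 CPM in snf1∆ at 24 hr, against 31.3, 18.0 and 21.1 in log-phase snf1∆. Their log2 fold changes were 3.997 and 3.97 in snf1∆, with 8.31 and 6.07 in WT.

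MSN2 and MSN4 were themselves measured. MSN2 fell similarly in both strains, with 31.0, 26.6 and 25.4 CPM in snf1∆ at 24 hr, against 68.5, 55.9 and 58.6 in log-phase snf1∆ (log2 fold change -1.15, with -1.20 in WT). MSN4 rose, with 114, 96.5 and 89.6 CPM in snf1∆ at 24 hr, against 42.5, 47.0 and 47.3 in log-phase snf1∆, by less than in WT (difference -0.64 ± 0.24 (SE, adjusted p = 0.0271)). GIS1, which acts on post-diauxic genes, did not pass the test in snf1∆, with 45.7, 42.6 and 27.8 CPM in snf1∆ at 24 hr, against 42.8, 31.6 and 35.1 in log-phase snf1∆, whereas it rose in WT by 2.68 (difference -2.60 ± 0.37 (SE, adjusted p = 7.75e-06)). RIM15, the kinase upstream of these factors, fell in snf1∆, with a log2 fold change of -0.50 ± 0.19 (SE, adjusted p = 0.0276), and had -0.08 in WT.

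Storage carbohydrate genes rose in snf1∆. Of 10 trehalose metabolism genes 8 rose and 1 fell (median 1.54 in snf1∆ and 2.88 in WT), and of 16 glycogen genes 14 rose (median 1.36 in snf1∆ and 3.69 in WT). The glycogen count depended on the fit: 9 rose under RLE or library-size scaling, with DESeq2, and without snf1∆ 24 hr replicate 1 or snf1∆ log-phase replicate 3. GLC3, the glycogen branching enzyme, had 496, 426 and 325 CPM in snf1∆ at 24 hr, against 49.5, 34.6 and 38.3 in log-phase snf1∆. GPH1, glycogen phosphorylase, had 557, 533 and 448 CPM in snf1∆ at 24 hr, against 64.1, 48.7 and 53.2 in log-phase snf1∆. TSL1, a subunit of the trehalose synthase complex, had 543, 462 and 360.2 CPM in snf1∆ at 24 hr, against 145, 78.9 and 112 in log-phase snf1∆. None of the 3 genes overlapped between the times in snf1∆, as was so for 77.6% of all tested genes. All 3 rose by less than in WT, with differences of -1.84, -1.65 and -2.15. These are RNA levels, and whether the stored carbohydrates rose with them was not tested here. The study's own assay, on separately grown cultures, found no build-up of trehalose in snf1∆ at 24 hr.

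Genes named for stationary phase were among the most induced. Of 25 members 22 rose in snf1∆ (median 2.29) and all rose in WT (median 4.75). SPG4, needed for survival in stationary phase, had 56.8, 66.6 and 49.4 CPM in snf1∆ at 24 hr, against 0.415, 0.548 and 1.09 in log-phase snf1∆. FMP45, a membrane protein of the SUR7 family, had 345, 313 and 188 CPM in snf1∆ at 24 hr, against 3.90, 3.75 and 3.46 in log-phase snf1∆, and its difference from WT did not pass the test (-1.53, interval -3.34 to 0.27). SNZ1, a vitamin B6 synthesis gene, rose alike in both strains: it had 883, 919 and 769 CPM in snf1∆ at 24 hr, against 32.8, 28.6 and 32.6 in log-phase snf1∆, with log2 fold changes of 4.77 in snf1∆ and 4.75 in WT. SIP18, a hydrophilin of desiccation tolerance, fell far short of WT. It had 20.2, 21.4 and 15.7 CPM in snf1∆ at 24 hr, against 1.16, 1.20 and 1.64 in log-phase snf1∆, whereas WT reached 1085, 1071 and 1808 CPM at 24 hr (difference -5.78 ± 0.56 (SE, adjusted p = 6.32e-08)).

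Respiratory genes rose modestly. Of 38 genes for the respiratory chain and ATP synthase, 33 rose and 2 fell in snf1∆ (median 0.95), while all 38 rose in WT (median 3.45) and the difference was called lower for all 38. QCR10, a subunit of complex III, had 149.8, 138 and 113 CPM in snf1∆ at 24 hr, against 30.5, 29.3 and 30.5 in log-phase snf1∆ (log2 fold change 2.15, with 5.03 in WT). NDI1, the internal NADH dehydrogenase, had 218, 198 and 165 CPM in snf1∆ at 24 hr, against 55.3, 54.2 and 45.9 in log-phase snf1∆ (1.90, with 5.30 in WT). The external NADH dehydrogenases split: NDE2 rose, with 81.3, 61.8 and 54.7 CPM in snf1∆ at 24 hr, against 4.65, 4.33 and 4.92 in log-phase snf1∆, and NDE1 fell, with 95, 94.7 and 89.7 CPM in snf1∆ at 24 hr, against 285, 240.3 and 229 in log-phase snf1∆. In WT both rose, NDE1 by 2.18. CYC1, iso-1-cytochrome c, also fell, with 7.46, 10.01 and 8.03 CPM in snf1∆ at 24 hr, against 11.7, 14.2 and 13.0 in log-phase snf1∆ (-0.62 ± 0.24 (SE, adjusted p = 0.0302)). Of 18 TCA cycle genes 14 rose in snf1∆ (median 0.77, with 3.32 in WT), and 9 did with library size as the only scaling. CIT1, mitochondrial citrate synthase, had 1199, 1100.1 and 1045 CPM in snf1∆ at 24 hr, against 195, 166 and 174 in log-phase snf1∆. ACO1, aconitase, fell, with 168, 152 and 163 CPM in snf1∆ at 24 hr, against 431, 411 and 471 in log-phase snf1∆ (-1.44, with 0.80 in WT). Respiratory chain genes held 0.832%, 0.796% and 0.77% of counts in snf1∆ at 24 hr and 0.553%, 0.526% and 0.548% in snf1∆ at log phase, against 3.75%, 3.74% and 3.82% in WT at 24 hr.

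HAP4, the limiting activator subunit of the Hap2/3/4/5 complex that drives these genes, did not move in a way that passed the test in snf1∆. It had 97.9, 89.7 and 74.3 CPM in snf1∆ at 24 hr, against 103, 86.7 and 85.8 in log-phase snf1∆, and 957, 980.4 and 845 CPM in WT at 24 hr, against 121, 102 and 132 in log-phase WT (difference -3.04 ± 0.33 (SE, adjusted p = 2.51e-07)). Of the 5 genes tested of this list, 3 rose in snf1∆: HAP1, a heme-responsive activator, by 1.67, HAP2 by 1.49 and HAP5 by 1.23, the last similarly in WT (1.23). Of 73 mitochondrial ribosomal protein genes 11 were higher and 22 lower in snf1∆ (median -0.14), a share of lower calls near the 30.5% of all genes. Without the 48 hr libraries 34 were lower, beside 2575 of 6576 genes. In WT 27 were higher and 22 lower.

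Genes under direct Snf1 control through Mig1, Cat8 and Adr1 were induced in part. Of 26 glucose-repressed sugar genes 14 rose and 1 fell in snf1∆ (median 0.86), and 25 rose in WT (median 3.27). Without the 48 hr libraries 15 rose and 7 fell in snf1∆. HXK1, the glucose-repressed hexokinase, had 658, 613 and 503 CPM in snf1∆ at 24 hr, against 45.7, 46.5 and 50.7 in log-phase snf1∆, and 8510.0, 8218 and 7181 CPM in WT at 24 hr, against 44.1, 42.3 and 75.3 in log-phase WT. HXT6 and HXT7, high-affinity hexose transporters that share 95% of their stretches and cannot be told apart, had 1910.3, 1926 and 1352 CPM in snf1∆ at 24 hr, against 97.5, 101 and 85.4 in log-phase snf1∆, and 1606, 1569 and 1118 CPM in snf1∆ at 24 hr, against 93.4, 107 and 97.5 in log-phase snf1∆. All 3 rose, by 3.63, 4.19 and 3.85, and all 3 by less than in WT.

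Of 13 glyoxylate cycle and gluconeogenesis genes 9 rose in snf1∆ and 1 fell, and of 21 other targets of Cat8 and Adr1 12 rose (medians 1.44 and 1.48 in snf1∆, 3.18 and 4.89 in WT). The carnitine genes stood high in this list. YAT1, a carnitine acetyltransferase of the outer mitochondrial membrane, had 298, 337 and 189.7 CPM in snf1∆ at 24 hr, against 6.98, 5.37 and 5.19 in log-phase snf1∆ (log2 fold change 5.56 ± 0.32 (SE, adjusted p = 1.79e-11), with 6.46 in WT), and CRC1, the carnitine carrier, had 62.8, 58.7 and 48.4 CPM in snf1∆ at 24 hr, against 1.91, 1.48 and 1.46 in log-phase snf1∆. MLS1, malate synthase, had 79.6, 79.1 and 64.4 CPM in snf1∆ at 24 hr, against 5.73, 4.98 and 3.92 in log-phase snf1∆, and MDH2, cytosolic malate dehydrogenase, fell, with 49.1, 52.0 and 36.7 CPM in snf1∆ at 24 hr, against 287, 249 and 271 in log-phase snf1∆. The carboxylic acid transporter JEN1 and the ammonium transporter ATO2 rose only slightly beside WT. JEN1 had 57.2, 56.0 and 37.9 CPM in snf1∆ at 24 hr, against 12.6, 9.88 and 9.92 in log-phase snf1∆, and 2746, 2819 and 2222 CPM in WT at 24 hr, against 9.81, 10.3 and 8.83 in log-phase WT. ATO2 had 39.4, 37.7 and 30.2 CPM in snf1∆ at 24 hr, against 8.81, 8.40 and 9.10 in log-phase snf1∆, and 2404, 2328 and 2008 CPM in WT at 24 hr, against 9.04, 9.04 and 8.83 in log-phase WT. The activators of these genes were measured as well. CAT8 did not pass the test, with 19.7, 20.8 and 17.8 CPM in snf1∆ at 24 hr, against 13.1, 11.0 and 13.8 in log-phase snf1∆ (0.62, with 5.17 in WT), nor did ADR1, with 38.2, 35.2 and 22.6 CPM in snf1∆ at 24 hr, against 28.6, 26.6 and 25.5 in log-phase snf1∆ (0.24, with 3.54 in WT). The CAT8 libraries of snf1∆ still did not overlap between the times, as was so for 77.6% of all tested genes. The study's qRT-PCR, on separately grown cultures, found a modest rise of CAT8 over time in snf1∆. SIP4, another activator of these genes, rose, with 26.7, 27.1 and 27.9 CPM in snf1∆ at 24 hr, against 4.24, 4.24 and 3.46 in log-phase snf1∆ (2.76, with 4.39 in WT). MIG1, the repressor that Snf1 phosphorylates, had 33.9, 24.5 and 30.2 CPM in snf1∆ at 24 hr, against 28.7, 21.9 and 29.0 in log-phase snf1∆ (0.16 ± 0.32 (SE, adjusted p = 0.68)).

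Peroxisomal fatty acid oxidation genes were closer to WT in part. Of 18 members 13 rose in snf1∆ (median 0.77, with 2.19 in WT), and of those called 6 were similar and 7 smaller. The difference was called lower for 9 members, higher for 1 and not called for 8, and its lowest value was -5.42. IDP3, peroxisomal isocitrate dehydrogenase, had 50.0, 47.4 and 64.5 CPM in snf1∆ at 24 hr, against 9.06, 11.5 and 11.5 in log-phase snf1∆, and TES1, a peroxisomal thioesterase, had 108, 103 and 77.6 CPM in snf1∆ at 24 hr, against 31.7, 29.5 and 32.9 in log-phase snf1∆. Their log2 fold changes were 2.34 and 1.62 in snf1∆, with 2.52 and 2.11 in WT.

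Glycolytic genes gained weight in the snf1∆ transcriptome at 24 hr. The 17 genes of glycolysis and ethanol formation held 21.9%, 23.5% and 22.0% of counts in snf1∆ at 24 hr and 14.0%, 13.9% and 14.3% in snf1∆ at log phase, against 4.60%, 4.56% and 3.87% in WT at 24 hr and 12.3%, 12.5% and 12.4% in WT at log phase. The snf1∆ libraries did not overlap between the times (exact two-sided permutation test p = 0.1, the smallest possible), as in most lists. Gene by gene 5 rose, 3 fell and 9 were not called in snf1∆ (median 0.62), a share of rises below the 36.5% of all genes. Without the 48 hr libraries 10 of the 17 rose and 3 fell, beside 2573 and 2575 of 6576 genes. The share of rises was then above that of all genes, so this comparison depended on the fit. In WT 13 fell (median -1.94). The difference was called higher for 13 of them.

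TDH1, the glyceraldehyde-3-phosphate dehydrogenase isozyme known from stationary-phase cells, took 3.61%, 3.81% and 3.31% of counts in snf1∆ at 24 hr, against 0.288%, 0.292% and 0.315% in snf1∆ at log phase. In CPM it had 32535, 35311 and 27573 CPM in snf1∆ at 24 hr, against 2320.2, 2248 and 2523 in log-phase snf1∆, a log2 fold change of 3.75 ± 0.39 (SE, adjusted p = 5.21e-08), with 4.15 in WT. ENO1, enolase, had 25508, 27191 and 22057 CPM in snf1∆ at 24 hr, against 5113, 4789 and 5227 in log-phase snf1∆ (2.30, with 1.05 in WT), with 10.7% of its stretches shared with a copy. PGK1, phosphoglycerate kinase, had 18429, 21942 and 18508 CPM in snf1∆ at 24 hr, against 9382, 9054 and 9112 in log-phase snf1∆ (1.10, with -0.43 in WT). GPM1, phosphoglycerate mutase, had 10199, 11774 and 11520.0 CPM in snf1∆ at 24 hr, against 6558, 6606 and 6715 in log-phase snf1∆, and 990.3, 942 and 897 CPM in WT at 24 hr, against 5918, 5718 and 5767 in log-phase WT. Its rise of 0.75 ± 0.26 (SE, adjusted p = 0.0166) in snf1∆ stood against a fall of -2.62 in WT, and was not called when genes under 10 counts in any library were left out (0.54, adjusted p = 0.0595). ADH1, alcohol dehydrogenase, fell in both strains, with 2645, 2675 and 1935 CPM in snf1∆ at 24 hr, against 10770.0, 9877 and 10452 in log-phase snf1∆, and 11.8% of its stretches shared with ADH2. HXK2, the hexokinase of fermenting cells, also fell in both strains, with 326, 360.3 and 318 CPM in snf1∆ at 24 hr, against 1345, 1294 and 1373 in log-phase snf1∆ (-2.00, with -1.94 in WT). No gene of this list was in the similar class.

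**Figure D3:**
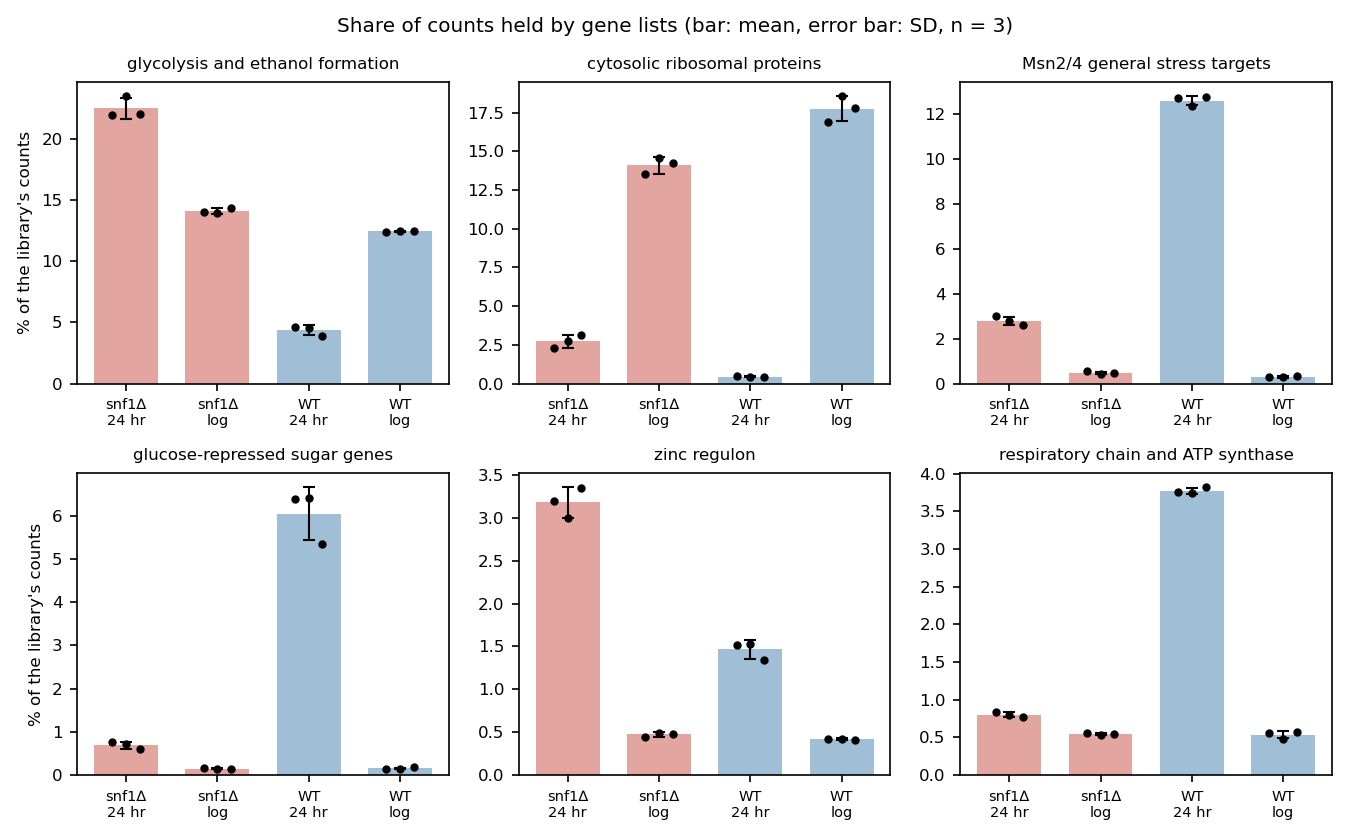
Share of each library's counts (vertical axis, percent, from 0) held by 6 gene lists in snf1∆ at 24 hr, snf1∆ at log phase, WT at 24 hr and WT at log phase; dots are libraries, bars means and error bars SD (n = 3). Glycolytic genes hold 21.9% to 23.5% in snf1∆ at 24 hr and 3.87% to 4.60% in WT at 24 hr, and ribosomal protein genes 2.30% to 3.15% and 0.406% to 0.464%.

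Chaperone genes set the 2 strains apart. Of 25 heat shock and cytosolic chaperone genes 6 rose and 9 fell in snf1∆ (median -0.10), where 36.5% of all genes rose and 30.5% fell. With at least 10 counts in every library 3 of 23 rose and 11 fell. In WT 21 of the 25 rose (median 2.73), and the difference was called lower for 22, beside 25.6% of all genes. The 25 genes held 1.02%, 1.07% and 1.13% of counts in snf1∆ at 24 hr and 2.20%, 1.97% and 2.16% in snf1∆ at log phase, against 3.69%, 3.75% and 3.70% in WT at 24 hr. SSA3, a stress-induced Hsp70, did not pass the test in snf1∆, with 31.5, 33.1 and 29.5 CPM in snf1∆ at 24 hr, against 23.3, 21.9 and 23.8 in log-phase snf1∆. In WT it had 2476, 2452 and 2942 CPM at 24 hr, against 20.6, 23.2 and 19.6 in log-phase WT (difference -6.51 ± 0.37 (SE, adjusted p = 1.56e-10)). BTN2, a protein sorting factor for misfolded proteins (chrVII:772454-773686, plus strand), fell in snf1∆, with 22.6, 21.0 and 29.4 CPM in snf1∆ at 24 hr, against 61.6, 52.6 and 54.4 in log-phase snf1∆, and rose in WT, with 1458, 1530.5 and 1423 CPM at 24 hr, against 32.9, 36.2 and 50.2 in log-phase WT. SSC1, the mitochondrial Hsp70, had 403, 399.7 and 318 CPM in snf1∆ at 24 hr, against 672, 614 and 670.3 in log-phase snf1∆ (-0.81, with 2.44 in WT). HSF1, the activator of heat shock genes, rose in both strains, with 143, 145 and 147 CPM in snf1∆ at 24 hr, against 47.6, 49.2 and 50.3 in log-phase snf1∆ (1.57, with 2.40 in WT). UBI4, polyubiquitin, with 14.0% of its stretches repeated in copies, rose, with 579, 617 and 607 CPM in snf1∆ at 24 hr, against 120.1, 124 and 124 in log-phase snf1∆ (2.29, with 2.73 in WT).

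Proteasome genes changed by less than 1 log2 unit in snf1∆. Of 34 members 1 rose and 11 fell (median -0.20, range -0.90 to 0.35), a share of falls near the 30.5% of all genes. Without the 48 hr libraries 19 of the 34 fell, a share above that of all genes, of which 2575 of 6576 then fell. Without snf1∆ 24 hr replicate 1, 7 fell. RPN4, their activator, fell in snf1∆ and rose in WT. It had 28.1, 27.7 and 31.1 CPM in snf1∆ at 24 hr, against 46.6, 48.4 and 46.1 in log-phase snf1∆, and 271, 284 and 272 CPM in WT at 24 hr, against 46.6, 50.2 and 49.1 in log-phase WT (difference -3.20 ± 0.18 (SE, adjusted p = 1.45e-10)). Of 23 antioxidant enzymes 11 rose and 3 fell in snf1∆, beside 36.5% and 30.5% of all genes. TSA2, a peroxiredoxin, had 110.4, 128 and 88.7 CPM in snf1∆ at 24 hr, against 14.5, 14.3 and 15.6 in log-phase snf1∆ (2.88, with 5.96 in WT).

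Iron uptake genes rose in both strains. Of 23 members of the regulon of Aft1, the activator that answers to low iron, 20 rose and none fell in snf1∆ (median 2.30), and 19 rose in WT (median 1.89). The difference was called higher for 4, lower for 3 and not called for 16, and of the 20 that rose 7 were in the similar class and 7 undecided. FIT2, a cell wall mannoprotein that retains siderophore iron (chrXV:1059531-1059992, plus strand), had the largest log2 fold change of the snf1∆ response, 7.99 ± 0.28 (SE, adjusted p = 3.35e-14), with 2254, 2353 and 2119.9 CPM in snf1∆ at 24 hr, against 8.56, 9.23 and 8.65 in log-phase snf1∆. It rose by more in WT (9.85, a difference of -1.86 ± 0.30 (SE, adjusted p = 3.05e-05)). FIT3, of the same family, had 1740.3, 1659 and 1509.7 CPM in snf1∆ at 24 hr, against 27.0, 27.6 and 29.4 in log-phase snf1∆ (5.87, with 7.16 in WT). TIS11, an RNA-binding protein that degrades transcripts of iron-using proteins, had 196, 168 and 164 CPM in snf1∆ at 24 hr, against 6.98, 6.30 and 7.10 in log-phase snf1∆, and 144, 135 and 134 CPM in WT at 24 hr, against 8.46, 6.73 and 5.50 in log-phase WT. The interval of its difference was -0.17 to 0.94. AFT1 had 38.7, 42.9 and 35.9 CPM in snf1∆ at 24 hr, against 32.1, 25.1 and 31.3 in log-phase snf1∆ (0.41, with 0.47 in WT). In shares of counts the list held 0.966%, 0.907% and 0.945% in snf1∆ at 24 hr and 0.117%, 0.108% and 0.108% in snf1∆ at log phase, and 1.15%, 1.15% and 1.52% in WT at 24 hr.

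Autophagy and vacuolar proteolysis genes also rose. Of 39 autophagy genes 34 rose and 2 fell in snf1∆, and 30 rose in WT (medians 1.20 in snf1∆ and 1.68 in WT). ATG41 had 1667, 1511 and 1221 CPM in snf1∆ at 24 hr, against 38.6, 39.0 and 39.2 in log-phase snf1∆, and reached a higher level at 24 hr than in WT, where it had 959, 893 and 634 CPM, although its fold change was smaller (5.23, with 6.77 in WT). ATG39, a receptor for autophagy of the nucleus and endoplasmic reticulum, had 23.8, 21.0 and 22.2 CPM in snf1∆ at 24 hr, against 2.33, 3.45 and 3.82 in log-phase snf1∆. PRB1, vacuolar protease B, had 1542, 1459 and 1073 CPM in snf1∆ at 24 hr, against 209.5, 149.7 and 183 in log-phase snf1∆ (2.91, with 3.59 in WT), and PRC1, carboxypeptidase Y, had 1754, 1709.9 and 1582 CPM in snf1∆ at 24 hr, against 702, 622 and 682 in log-phase snf1∆ (1.33, with 2.88 in WT).

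Other genes with similar rises were REE1, RCH1, MIN7 and FMP23. REE1, a cytoplasmic protein linked to enolase regulation, had 523, 695 and 666 CPM in snf1∆ at 24 hr, against 44.5, 49.5 and 44.8 in log-phase snf1∆, and 658, 662 and 513 CPM in WT at 24 hr, against 44.9, 52.1 and 38.0 in log-phase WT, which is the same log2 fold change of 3.76 in both. RCH1, a plasma membrane protein linked to calcium uptake, had 108, 96.7 and 71.2 CPM in snf1∆ at 24 hr, against 11.7, 8.87 and 7.56 in log-phase snf1∆ (3.29, with 3.65 in WT). MIN7 and FMP23 had log2 fold changes of 3.99 and 2.89 in snf1∆ and 3.76 and 3.08 in WT. PUT1, proline oxidase, was another of the 10 largest rises, with 403, 368 and 213 CPM in snf1∆ at 24 hr, against 4.15, 4.52 and 4.46 in log-phase snf1∆, slightly below WT (difference -1.24 ± 0.33 (SE, adjusted p = 0.00329)), and DPI8, whose role is not described here, had 2154, 2346 and 1628 CPM in snf1∆ at 24 hr, against 40.3, 28.8 and 38.2 in log-phase snf1∆ (5.84, with 6.60 in WT).

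Some genes rose more in snf1∆ than in WT. Several zinc genes did so: of 14 targets of the zinc-responsive activator Zap1, 12 rose in snf1∆ (median 1.76) and 8 in WT (median 0.68), and the difference was called higher for 8. ZPS1, a cell wall protein induced by low zinc, had 11196, 11094 and 11891 CPM in snf1∆ at 24 hr, against 508, 642 and 685 in log-phase snf1∆, and 859, 835 and 615 CPM in WT at 24 hr, against 234, 281 and 272 in log-phase WT. It took 1.24%, 1.20% and 1.43% of counts in snf1∆ at 24 hr. ZRT2, the low-affinity zinc transporter, had 1909, 1661 and 1578 CPM in snf1∆ at 24 hr, against 237, 241 and 226 in log-phase snf1∆ (2.87, with 1.504 in WT). ADH4, an alcohol dehydrogenase expressed at low zinc, had 5625, 5137 and 4527 CPM in snf1∆ at 24 hr, against 607, 736 and 766 in log-phase snf1∆ (2.86, with 0.25 in WT). ZAP1 itself rose by less than in WT, with 151, 128 and 135 CPM in snf1∆ at 24 hr, against 35.8, 32.5 and 31.7 in log-phase snf1∆ (2.05, with 3.34 in WT).

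Named for large differences from WT were a pair of genes each of biotin and lysine synthesis. BIO3, an aminotransferase of biotin synthesis (chrXIV:734291-735733, plus strand), had 1162, 1205 and 1127 CPM in snf1∆ at 24 hr, against 17.9, 20.8 and 18.7 in log-phase snf1∆, and 70.8, 70.5 and 44.8 CPM in WT at 24 hr, against 14.0, 13.7 and 14.3 in log-phase WT (difference 3.79 ± 0.31 (SE, adjusted p = 8.54e-09)). BIO5, the transporter of biotin precursors near it on chromosome XIV, had 728, 708 and 563 CPM in snf1∆ at 24 hr, against 10.9, 9.61 and 8.83 in log-phase snf1∆ (6.09, with 2.85 in WT). LYS9, which makes saccharopine (chrXIV:714048-715388, minus strand), rose in snf1∆ and fell in WT: it had 807, 816 and 768 CPM in snf1∆ at 24 hr, against 204, 184 and 183 in log-phase snf1∆, and 36.5, 45.2 and 29.0 CPM in WT at 24 hr, against 163, 160.0 and 152 in log-phase WT. LYS12, homoisocitrate dehydrogenase, had 365, 418 and 466 CPM in snf1∆ at 24 hr, against 176, 186 and 187 in log-phase snf1∆ (1.19, with -2.53 in WT). LYS20, a homocitrate synthase gene of the same pathway with 30.3% of its stretches shared with a copy, rose in both strains (2.95 in snf1∆ and 2.40 in WT), and its difference did not pass the test (0.54, adjusted p = 0.0734). Over all 61 amino acid biosynthesis genes 27 rose and 16 fell in snf1∆ (median 0.19), beside 36.5% and 30.5% of all genes. In WT 17 of the 61 rose and 34 fell (median -0.75). The snf1∆ median was -0.02 when genes under 10 counts in any library were left out, so that the list as a whole had no settled direction. ARG3, ornithine carbamoyltransferase, had 127, 117 and 144 CPM in snf1∆ at 24 hr, against 8.97, 7.42 and 7.01 in log-phase snf1∆ (4.06, with 2.47 in WT). GCN4, the activator of these genes, had 956, 1074 and 861 CPM in snf1∆ at 24 hr, against 828, 917 and 819 in log-phase snf1∆ (0.17 ± 0.15 (SE, adjusted p = 0.323)).

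GPA1, the G protein alpha subunit of the pheromone pathway, had 107, 101 and 137 CPM in snf1∆ at 24 hr, against 57.2, 87.1 and 63.3 in log-phase snf1∆, and PDR12, an exporter of weak acids, had 626, 594 and 442 CPM in snf1∆ at 24 hr, against 302, 264 and 301 in log-phase snf1∆. Both rose in snf1∆ (0.73 ± 0.22 (SE, adjusted p = 0.00622) and 0.94 ± 0.38 (SE, adjusted p = 0.0338)) and fell in WT (-2.76 and -2.31). Neither rise was settled: with library size as the only scaling GPA1 had an adjusted p of 0.0709, and PDR12 was not called under RLE, upper-quartile or library-size scaling (adjusted p from 0.0518 to 0.136) nor without each of 5 of the 6 snf1∆ libraries (0.0641 to 0.0909).

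Among genes that fell in snf1∆ but not in WT, YIG1, a gene linked to glycerol formation, had 0.24, 1.54 and 1.03 CPM in snf1∆ at 24 hr, against 6.98, 5.26 and 6.74 in log-phase snf1∆, where the 24 hr values rest on few reads, and 111, 113 and 227 CPM in WT at 24 hr, against 7.31, 8.11 and 6.31 in log-phase WT (difference -7.01 ± 0.84 (SE, adjusted p = 8.71e-07)). PRM7, a pheromone-regulated membrane protein, had 13.9, 15.2 and 8.89 CPM in snf1∆ at 24 hr, against 139, 132 and 149 in log-phase snf1∆. In WT it had 42.7, 46.1 and 28.0 CPM at 24 hr, against 45.5, 42.7 and 37.7 CPM at log phase (-3.49, with -0.11 in WT). Its snf1∆ level at log phase was above that of each of these WT libraries.

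**Figure D4:**
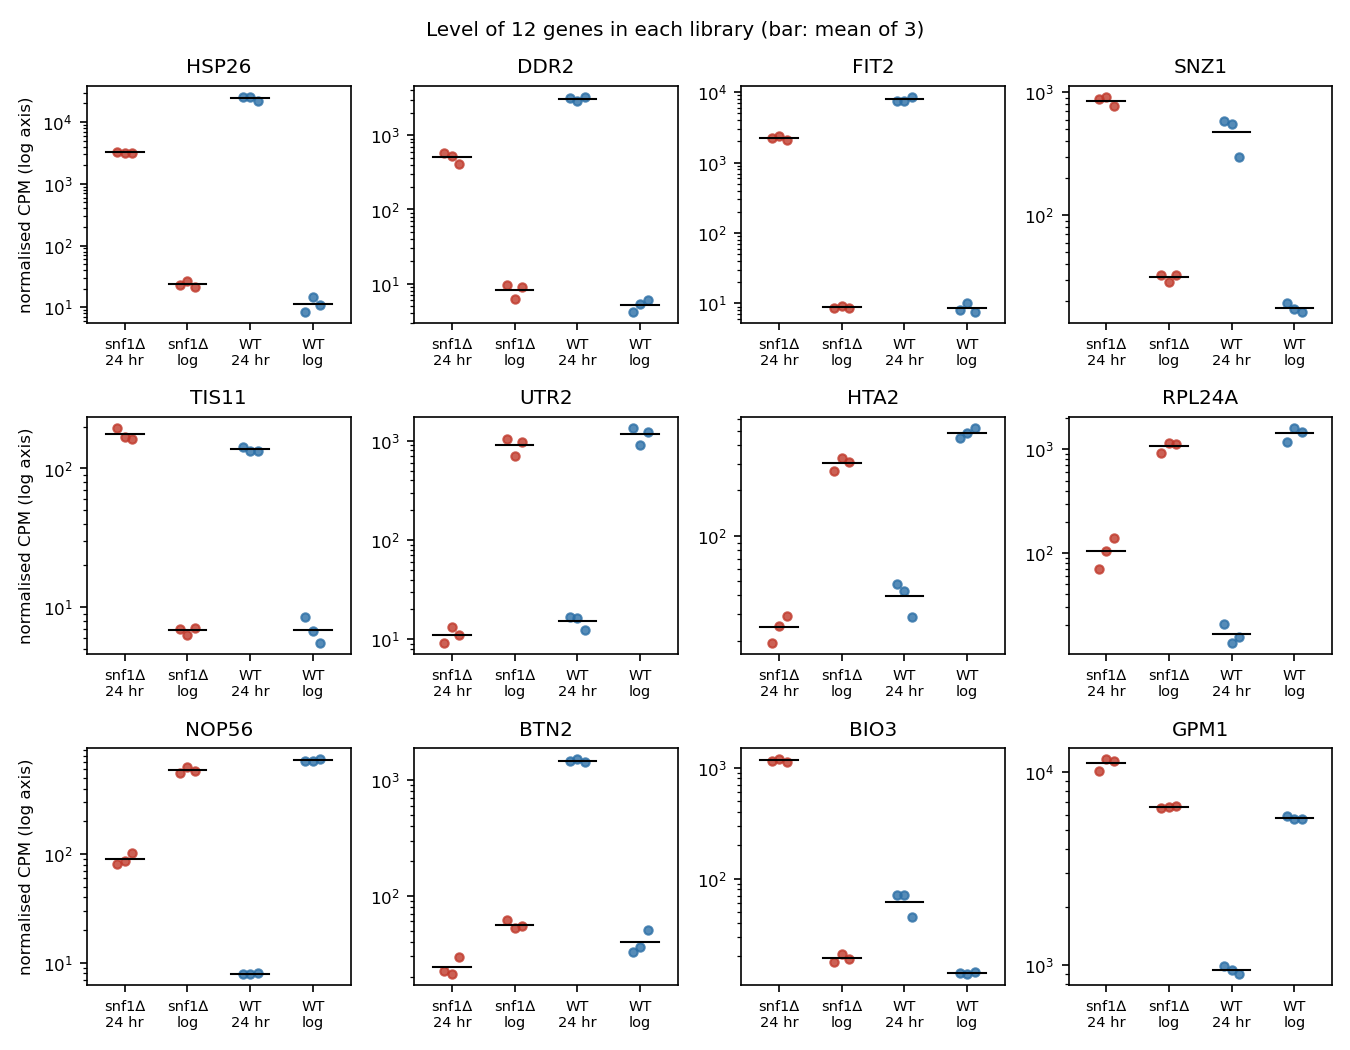
Normalised CPM (log axis) of 12 genes in each library of snf1∆ at 24 hr, snf1∆ at log phase, WT at 24 hr and WT at log phase; points are libraries and bars the mean of 3. SNZ1, TIS11, UTR2 and HTA2 change alike in both strains, HSP26, DDR2, RPL24A and NOP56 change less in snf1∆, BIO3 changes more, and BTN2 and GPM1 change in opposite directions.

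Other nutrient regulons were set beside WT in the same way. Over all tested genes 36.5% rose and 30.5% fell in snf1∆, and 41.2% rose in WT. Of 25 genes under nitrogen catabolite repression 18 rose and 2 fell in snf1∆ (median 0.95, with 1.69 in WT), and 4 fell without the 48 hr libraries. UGA4, the GABA permease, had 45.9, 52.2 and 28.0 CPM in snf1∆ at 24 hr, against 5.57, 4.76 and 3.92 in log-phase snf1∆, and CAR1, arginase, fell in snf1∆ with 33.4, 46.6 and 28.8 CPM in snf1∆ at 24 hr, against 96.8, 88.8 and 94.2 in log-phase snf1∆ but rose in WT (-1.37 and 1.81). Of 20 phosphate starvation genes 13 rose in snf1∆ and 6 in WT (medians 0.93 and 0.02). The difference was called higher for 7 and lower for 3 of the 20, beside 29.3% and 25.6% of all genes. PHM8, a phosphatase for nucleotide breakdown, had 229, 228 and 266 CPM in snf1∆ at 24 hr, against 82.9, 84.1 and 84.2 in log-phase snf1∆ (1.53, with 0.22 in WT). Of 17 genes of NAD synthesis and salvage, sirtuins included, 10 rose and 2 fell in snf1∆ (median 0.66, with 0.42 in WT), and without the 48 hr libraries 11 rose and 4 fell. BNA2, which starts NAD synthesis from tryptophan, had 106, 116 and 77.5 CPM in snf1∆ at 24 hr, against 7.39, 5.97 and 5.64 in log-phase snf1∆ (3.98, with 5.43 in WT). HST3, a histone deacetylase of the cell cycle, fell alike in both strains (-2.13 and -2.21).

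The partners of Snf1 were measured as well. SNF4, the gamma subunit, had 42.6, 42.9 and 44.1 CPM in snf1∆ at 24 hr, against 66.5, 62.7 and 52.9 in log-phase snf1∆ (-0.49 ± 0.11 (SE, adjusted p = 4.62e-04)), a smaller fall than in WT (-1.09). SIP2, a beta subunit, rose, with 51.0, 47.2 and 45.9 CPM in snf1∆ at 24 hr, against 14.1, 13.8 and 14.8 in log-phase snf1∆ (1.75, with 3.33 in WT). SAK1, the main upstream kinase, fell similarly in both strains, with 33.2, 30.2 and 40.3 CPM in snf1∆ at 24 hr, against 93.1, 90.9 and 84.6 in log-phase snf1∆ (-1.36 and -1.74). Of the corepressor genes, TUP1 fell similarly, with 81.0, 74.7 and 60.4 CPM in snf1∆ at 24 hr, against 202, 158 and 205 in log-phase snf1∆ (-1.39 and -1.37), and CYC8 fell, with 41.4, 44.3 and 34.9 CPM in snf1∆ at 24 hr, against 85.7, 70.2 and 80.3 in log-phase snf1∆ (-0.97, with -0.30 in WT).

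The motifs were also counted in the promoters of the classes, whose members were chosen by expression and not by sequence. Among genes that rose in snf1∆, STRE was present in 41.4% of 834 promoters of the smaller class, 21.2% of 532 of the similar class and 18.9% of 132 of the larger class, against 21.7% of all 5950. Among genes that fell, PAC was present in 30.7% of 965 promoters of the smaller class, 19.5% of 349 of the similar class and 11.4% of 79 of the larger class, against 20.3% of all. RRPE was present in 25.5%, 10.9% and 15.2% of the same classes, against 9.04% of all. Counted on the gene's strand alone, STRE was present in 23.5% of the smaller and 10.5% of the similar promoters among genes that rose, against 11.3% of all. The heat shock element form TTCNNGAA was present in 13.7% of the smaller and 13.4% of the similar promoters among genes that rose, close to its 12.9% of all promoters, and in 15 of the 25 chaperone promoters. These are descriptions of letters in a fixed window.

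**Figure D5:**
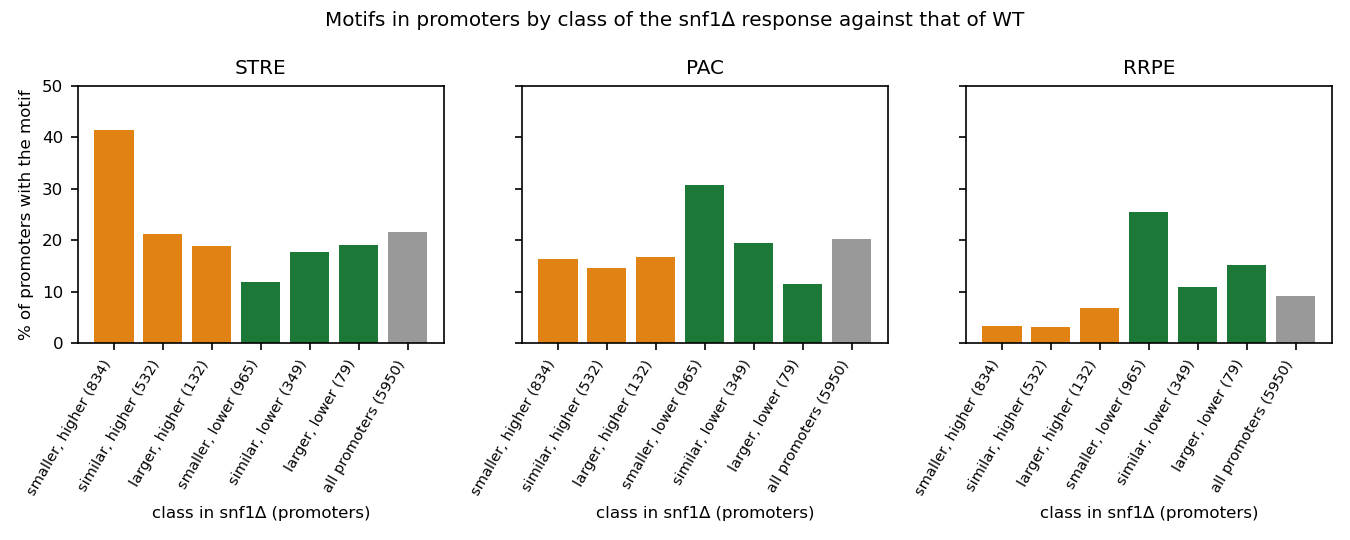
Percentage of promoters (vertical axis, from 0) with STRE, PAC or RRPE on either strand, by class of the snf1∆ response relative to WT (bars, number of promoters in brackets), beside all promoters in grey. STRE is present in 41.4% of promoters of the smaller class of genes that rose, and PAC and RRPE in 30.7% and 25.5% of the smaller class of genes that fell.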

How the data were processed

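Libraries were poly(A)-selected, made with a directional kit and sequenced as 75-base single-end reads. Per the labels and the study's methods, the authors mapped reads to sacCer3 with Bowtie2, counted them per ORF with bedtools and tested them with edgeR (versions not given in the sources used here). The deposited values are raw counts for 6692 ORFs in 24 libraries, of which 6008 matched the RefSeq R64 annotation (0 columns were unused). In 16 pairs of annotated ORFs on opposite strands, with over 90% of the shorter one covered, counts per base of the inner over the outer ORF were 0.877 to 2.15 (median 1.20), so the counts appear not to separate strands, and overlapping antisense genes cannot be told apart. Of the 46 genes named by the rule below none overlaps another gene of the RefSeq annotation. ORF rows outside that annotation were not checked for overlap, so some may count the same reads again. YKL153W held 0.801%, 0.907% and 0.997% of counts in snf1∆ at 24 hr, beside 1.13%, 1.27% and 1.38% for GPM1. Whether these rows share reads was not tested.

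Counts were fitted with edgeR 4.0.16 (R 4.3.3) on all 24 libraries in 9 groups of strain and time, with TMM factors, filterByExpr and the quasi-likelihood test, Benjamini-Hochberg adjusted over the 6616 genes tested. Standard errors and 95% intervals were derived from F and its degrees of freedom. Simulated counts were drawn for all libraries from the snf1∆ log-phase means, with 1 common dispersion for all genes. Only 200 genes were changed, by 1.5 log2 units in snf1∆ at 24 hr. The test recovered 198 of these 200 in the snf1∆ comparison, with 8 false calls among 6501 genes. For the difference of responses it recovered 171, with 3 false calls. The data hold far more changes and uneven spread, so these figures are not error rates of the fit. Named genes were the 10 largest rises and falls in snf1∆, the 6 highest and lowest of the similar class, the 6 highest and lowest differences of responses among genes called in snf1∆ in that direction, the 6 lowest differences among genes higher in WT, and the most changed members and the regulators of each list. The first 4 kinds needed a mean log2 CPM of 3, no overlap of the libraries and a standard name. A window could be read for 5950 promoters. Lists came from general knowledge of yeast and the study's text, and members, lists and tests were chosen with earlier results of these data known; 7 listed names had no row or were not tested. Alternatives covered scaling, filters, DESeq2 1.42.0, fewer libraries, each library left out in turn, and a block for the replicate number. Columns of the authors' own comparisons were absent.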

Additional observations from a re-analysis of the deposited data

Results flagged for a closer look

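Of the 46 genes named by the rule, 29 had a change in snf1∆ that differed from the change in WT in a direct test (edgeR's quasi-likelihood test of the difference of responses, adjusted p under 0.05, n = 3 libraries in each of the 4 groups). The rule fixed much of this count. Genes taken for their difference needed a called one, and those of the similar class needed none called. Over all 6616 genes the difference was called higher for 29.3% and lower for 25.6%. The values below are log2 fold changes in snf1∆ minus those in WT. Among the largest rises in snf1∆ the difference was -1.86 for FIT2, -3.98 for HSP26, -3.89 for SPG4, -1.24 for PUT1 and -3.30 for DDR2, and it was 3.24 for BIO5 and 3.79 for BIO3. Among the largest falls it was -1.09 for IMD2 and -2.62 for CHO2, which fell further in snf1∆, and 0.89 for RNR1, 2.23 for SFG1, 1.26 for POL30, 1.16 for TOS4 and 1.499 for CLB2, which fell less.

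Genes that rose in snf1∆ and fell in WT had differences of 4.17 for LYS9, 3.72 for LYS12, 3.49 for GPA1, 3.37 for GPM1 and 3.24 for PDR12. Genes that fell in snf1∆ had differences of -7.01 for YIG1, -6.41 for BTN2, -3.62 for NDE1, -3.38 for PRM7, -3.25 for SSC1 and -3.20 for RPN4, and of these PRM7 had no called change in WT whereas the others rose there. The 4 remaining genes rose in WT by more than in snf1∆, with differences of -6.51 for SSA3, -5.94 for ATO2, -5.85 for JEN1 and -5.78 for SIP18. These genes were picked for extreme values, so the sizes describe the extremes of 6616 genes.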

How the results depend on the processing

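A test against a log2 fold change of 1 (glmTreat) called 825 genes higher and 805 lower in snf1∆, 1573 and 1618 in WT, and 763 and 634 for the difference of responses. With at least 10 counts in every library, 1603 genes were called higher and 1869 lower in snf1∆, out of 5025 tested. Fewer list members were then tested, and 8 of 16 TCA cycle and 9 of 14 glycogen genes rose, 3 of 23 chaperone genes rose, 6 of 15 phosphate genes rose, 4 of 27 purine and pyrimidine genes rose, 6 of 8 RNA polymerase I and 4 of 6 cyclin genes fell, and 34 of 69 mitochondrial ribosomal and 19 of 34 proteasome genes fell. With library size as the only scaling 1129 differences were called lower and 2532 higher, and 603 genes that rose were of the smaller class. An interval bound of log2(1.5) left 125 similar genes that rose and 91 that fell. Without the 48 hr libraries, the larger class held 221 genes that rose and 190 that fell, and 330 fell with the opposite sign in WT. With the WT and snf1∆ libraries of both times alone these were 215, 191 and 319, and with a replicate block on those libraries 223, 198 and 334.

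Replicate numbers did not pair the snf1∆ libraries: deviations of same-numbered libraries at 24 hr and log phase correlated at 0.23, -0.27 and -0.04, and 1 of the 3 libraries at 24 hr correlated best with its own number. Same-numbered log-phase libraries of snf1∆ and WT correlated at 0.33, 0.51 and 0.13, each the best match by number, but those at 24 hr at 0.03, 0.04 and 0.14, so the numbers did not pair the 4 groups of the difference of responses. The replicate block called 2581 genes higher and 2588 lower in snf1∆, against 2550 and 2543 in the same libraries without it, and 2298 and 2254 differences, against 2253 and 2225. Leaving out each snf1∆ library gave 4061 to 4192 calls. Of 1501 values of named genes under alternatives, 1480 stayed on their side of the threshold, 21 lost the call and 0 changed sign; 11 of these 21 were PDR12. A change of sign of a list's snf1∆ median was counted only where its main size exceeded the SD between the snf1∆ libraries at 24 hr. By this rule 39 lists had none, though smaller medians could change sign uncounted. The median of amino acid biosynthesis was -0.018 with at least 10 counts in every library. Replicates 1 and 2 of snf1∆ at 24 hr had fewer counts than each log-phase snf1∆ library, and genes near 1 CPM, such as YIG1 at 24 hr, rest on few reads.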

Other observations

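Further gene groups were measured in snf1∆. Of 15 genes of the Ras and protein kinase A pathway, 7 rose and 2 fell in snf1∆ (median 0.28, with 0.99 in WT), beside 36.5% and 30.5% of all genes. PDE1, the low-affinity cAMP phosphodiesterase, had 285, 278 and 288 CPM in snf1∆ at 24 hr, against 37.9, 37.2 and 38.1 in log-phase snf1∆ (2.91, with 4.24 in WT), while PDE2, the high-affinity enzyme, fell in snf1∆ with 33.9, 26.8 and 29.7 CPM in snf1∆ at 24 hr, against 67.7, 71.8 and 59.9 in log-phase snf1∆ (-1.14, with -0.07 in WT). RAS1 fell, with 17.3, 17.7 and 21.9 CPM in snf1∆ at 24 hr, against 51.9, 62.0 and 54.7 in log-phase snf1∆ (-1.55, with -3.60 in WT). In the TORC1 and Sch9 pathway 6 of 19 genes rose and 4 fell, shares below the 36.5% and 30.5% of all genes. Without the 48 hr libraries 8 rose and 5 fell, beside 2573 and 2575 of 6576 genes. DOT6, a repressor of ribosome biogenesis genes through PAC, had 883, 776 and 481 CPM in snf1∆ at 24 hr, against 345, 259.9 and 318 in log-phase snf1∆ (1.21, with 3.51 in WT), and SFP1, an activator of ribosomal genes, had 51.2, 53.9 and 38.1 CPM in snf1∆ at 24 hr, against 77.0, 70.2 and 70.0 in log-phase snf1∆ (-0.61, with 0.18 in WT).

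Of 28 purine and pyrimidine synthesis genes 7 rose and 12 fell in snf1∆, beside 36.5% and 30.5% of all genes, and 4 rose with library size as the only scaling. URA10, an orotate phosphoribosyltransferase, had 374, 364 and 389 CPM in snf1∆ at 24 hr, against 17.8, 16.4 and 16.3 in log-phase snf1∆ (4.48, with 5.36 in WT), and URA1, dihydroorotate dehydrogenase, fell further in snf1∆ than in WT, with 108, 114 and 123 CPM in snf1∆ at 24 hr, against 998, 932 and 945 in log-phase snf1∆ (-3.06, with -1.85 in WT). Of 25 ergosterol genes 13 fell and none rose in snf1∆, and 20 fell in WT. The sterol importer gene AUS1 rose, with 203, 214 and 172 CPM in snf1∆ at 24 hr, against 54.3, 47.0 and 50.6 in log-phase snf1∆ (1.95, with 1.17 in WT). The hexose transporter gene HXT1, induced by high glucose, fell, with 109, 133 and 159 CPM in snf1∆ at 24 hr, against 512, 487 and 487 in log-phase snf1∆ (-1.89, with -3.21 in WT). AGA2, a MATa-specific agglutinin subunit, rose in snf1∆, with 837, 781 and 693 CPM in snf1∆ at 24 hr, against 209, 179.8 and 229 in log-phase snf1∆ (1.90, with 0.15 in WT). The reference genes ACT1 and TFC1 did not pass the test in snf1∆, with 2642, 2758 and 2365 CPM in snf1∆ at 24 hr, against 2310.3, 1942 and 2325 in log-phase snf1∆ for ACT1 and 28.1, 26.0 and 30.9 CPM in snf1∆ at 24 hr, against 28.3, 28.4 and 26.9 in log-phase snf1∆ for TFC1, whereas TUB2, beta-tubulin, fell, with 71.7, 78.6 and 73.1 CPM in snf1∆ at 24 hr, against 640.4, 475 and 598 in log-phase snf1∆ (-2.94, with -3.53 in WT).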
